A study of Mus musculus with 16 samples.

Results

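The comparison described here is between kidney cortex taken after ischaemia-reperfusion injury (IRI, 4 libraries) and after sham surgery (4 libraries) in mice with intact, floxed Degs1, 8 of the 16 libraries of the series. These libraries were chosen by their group label. All 8 came from male C57Bl/6J Degs1fl/fl mice, the littermates of Rosa26-CreERT2 animals in which the same floxed alleles are deleted in every tissue (iGKO). Both groups received tamoxifen, 3 mg on each of 5 days at 9 weeks of age, and both had surgery at 12 weeks. The IRI group had a clamp on the left and right renal pedicle for 28 min, and cortex was collected 24 h after its release. Degs1 encodes the dihydroceramide desaturase of ceramide synthesis and was present in both groups, at 113, 84.0, 98.7 and 105 counts per 1000000 counts of the library (CPM) in sham libraries 1 to 4 and 88.8, 115, 133 and 114 CPM in IRI libraries 1 to 4. The groups overlapped (log2 difference 0.17 ± 0.18 SE, adjusted p = 0.565). The labels do not say that each library is a separate animal, so the p-values measure the spread between these libraries.

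The cortex is mostly proximal tubule, an epithelium that reclaims filtered solutes through apical and basolateral carriers and draws its energy from mitochondrial and peroxisomal oxidation. It also breaks down amino acids and detoxifies organic acids and drugs. After ischaemia, surviving tubule cells lose their polarity and brush border, and the kidney injury molecule Havcr1 and the siderophore-binding lipocalin Lcn2 are the usual markers of that state. Making a ribosome needs RNA polymerase I, small nucleolar RNAs, assembly factors that work in the nucleolus, and ribosomal proteins. Aminoacyl-tRNA synthetases then load amino acids onto tRNAs, with separate sets of enzymes for the cytosol and for mitochondria.

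The 8 libraries held 13281659 to 16953513 counts each, and mitochondrial transcripts took 4.43 to 6.48% of counts in sham, 2.99% in fl/fl IRI 1 and 4.56 to 5.37% in the other IRI libraries (means 5.85 and 4.45%, exact two-sided permutation p = 0.114, adjusted p = 0.343 over 3 library values). Of 17972 genes tested, 1520 were higher and 1259 lower in IRI at adjusted p under 0.05 (edgeR quasi-likelihood, all 16 libraries in the fit), 15.5% of the genes tested, 8.46% higher and 7.01% lower. The median log2 difference over all genes was 0.01. Leaving out fl/fl IRI 1 raised these counts to 2194 and 2141 (23.6% of 18392 genes tested), whereas leaving out fl/fl IRI 3 lowered them to 895 and 564, and leaving out fl/fl IRI 4 to 1087 and 763. Without fl/fl sham 1, 3 or 4 they were 946 and 745, 813 and 639, and 888 and 709. Fitted on the 8 fl/fl libraries alone they were 916 and 610, and of the genes named below, the calls of Slc34a1 (adjusted p = 0.066), Mrpl4 (0.068), Mthfd1 (0.052), Acox2 (0.056), Ces1e (0.058), Klf5 (0.057), Hlf (0.069), Sfrp1 (0.069), Egf (0.071), Fgr (0.054) and Aars (0.054) ended. Havcr1 rose from 8.53, 4.15, 10.1 and 24.7 CPM to 101, 1325, 1666 and 710 CPM (log2 6.32 ± 0.97, adjusted p = 0.0012, and 6.97 without fl/fl sham 4). Lcn2 rose from 4.27, 4.604, 17.3 and 14.9 CPM to 47.6, 215, 412 and 322 CPM (log2 4.599 ± 0.60). In bulk cortex, fewer cells of a type and less RNA per cell cannot be told apart. Slc34a1, the proximal tubule's sodium-phosphate carrier, stood at 4818 to 5536 CPM in sham and fell to 3760, 1450, 729 and 2038 CPM. In the 3 genes fl/fl IRI 1 lay nearest to sham.

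Markers of some cell types moved with the surgery. Proximal tubule markers summed to 25630.1 to 31319.7 CPM, without scaling, in sham and to 23000.1, 13879.3, 10340.5 and 16101.9 in IRI libraries 1 to 4, and 6 of 12 fell, 11 of 12 without fl/fl IRI 1 and 3 of 12 in the fl/fl libraries alone. Of the thick ascending limb markers 5 of 8 fell (3 without fl/fl IRI 3), and of the distal convoluted and connecting tubule markers 4 of 8. Of the endothelial markers 4 of 9 fell (2 without any 1 of the 4 sham libraries or without fl/fl IRI 3). Over all genes tested 7.01% fell and 8.46% rose. The collecting duct count of 1 of 10 lower was near that share. It became 2 without fl/fl IRI 1 and 0 without fl/fl sham 1, 2 or 4 or fl/fl IRI 2 or 3. Cubn, an endocytic receptor of proximal tubule cells, fell from 1293 to 1589 CPM to 770, 641, 331 and 430 CPM. Egf, made in the distal nephron, fell from 1465 to 1627 CPM to 699, 35.8, 77.5 and 367 CPM (log2 -2.40, -3.28 without fl/fl IRI 1, adjusted p = 0.052 without fl/fl IRI 3). All 8 neutrophil markers tested rose, from sums of 6.33 to 15.1 CPM in sham to 32.0, 132, 281 and 39.2 in IRI. Of the 8 podocyte, 9 fibroblast and mural cell, 4 lymphocyte, 5 erythrocyte, 7 fat and 3 urothelial markers tested none passed in edgeR or DESeq2, with 3, 2, 0, 0, 1 and 0 at unadjusted p under 0.05. Without fl/fl IRI 1, 2 podocyte and 2 lymphocyte markers fell, and without fl/fl sham 2 or IRI 2, 1 fat marker fell. Adrenal markers, 4 of 8 at 0 in all 8 libraries, summed to 1.54 to 9.11, and muscle markers to at most 1.05. Fat markers summed to 17.1 to 714 in sham, highest in fl/fl sham 3, and to 45.4 to 149 in IRI. The part of these cell types in the changes below was not tested.

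Genes that build ribosomes were higher after IRI as a group. Of 96 ribosome assembly factors, 57 rose (59.4%, against 8.46% of all genes tested), with a median log2 difference of 0.58 against 0.01 over all genes. Mybbp1a, a nucleolar protein of ribosome synthesis, stood at 83.6, 86.5, 69.4 and 82.2 CPM in sham and 120, 190, 189 and 247 CPM in IRI (log2 1.21 ± 0.19, adjusted p = 0.0012). The groups did not overlap, and fl/fl IRI 1 was the lowest of the injured libraries. Nop56, a core protein of box C/D small nucleolar particles, had 19.8 to 26.0 CPM in sham and 37.6, 43.6, 59.1 and 57.4 CPM in IRI (log2 1.14 ± 0.17). The RNA helicase Ddx21 had 46.0 to 60.5 and 72.1, 108, 130 and 161 CPM (log2 1.164 ± 0.19), and the assembly factor Urb2 18.1 to 21.2 and 29.3, 37.0, 36.7 and 42.0 CPM (log2 0.91 ± 0.14). In these factors, named for the smallest p in the list, all 4 injured libraries were above every sham library. The groups did not overlap, in either direction, in 59 of the 96 factors and in 3499 of all 17972 genes tested (19.5%). The count of 57 became 33 without fl/fl sham 3, 37 without each of fl/fl sham 4, fl/fl IRI 3 and fl/fl IRI 4, and 66 without fl/fl IRI 1.

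The transcription and RNA side of the same pathway gave smaller counts. Of 15 subunits of RNA polymerases I and III, 4 rose, with a median log2 of 0.33, and 2 did so without any 1 of fl/fl sham 1, sham 3, sham 4, IRI 2 or IRI 3. Polr1b, the second-largest subunit of polymerase I, had 25.1 to 28.9 CPM in sham and 33.2, 47.5, 40.7 and 48.9 CPM in IRI (log2 0.63 ± 0.14, adjusted p = 0.0071). Polr1a, its largest subunit, had 41.6 to 46.8 and 50.05, 82.2, 77.1 and 75.7 CPM (log2 0.67 ± 0.17). Of 15 host genes that carry small nucleolar RNAs in their introns, 6 rose and 1 fell, with a median log2 of 0.79. Snhg15 went from 3.91 to 5.84 CPM to 11.9, 10.1, 12.8 and 19.3 CPM (log2 1.53 ± 0.26), and Gas5, whose transcript is degraded when translation is active, from 21.4 to 24.7 CPM to 32.4, 44.8, 55.5 and 69.5 CPM (log2 1.10 ± 0.21). Snhg15 in fl/fl IRI 1 reached the level of the other injured libraries, and Gas5 there was the lowest of the 4. The 6 host genes became 3 without fl/fl IRI 4, and the 1 lower became 0 without fl/fl sham 1, sham 3 or IRI 3.

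Ribosomal proteins of the cytosol and of mitochondria gave different counts. Of 83 cytosolic ribosomal protein genes 15 rose, at a median log2 of 0.37, and of 77 mitochondrial ones 2 rose and 2 fell, at a median of -0.10. Rpl12 had 142, 121, 111 and 132 CPM in sham and 213, 219, 295 and 224 CPM in IRI (log2 0.91 ± 0.16, adjusted p = 0.0023). Rpl10a had 139 to 160 and 220, 229, 250 and 259 CPM (log2 0.67 ± 0.15), and Rps27a, a fusion of ubiquitin and a ribosomal protein, 89.0 to 97.7 and 138, 121, 155 and 162 CPM (log2 0.62 ± 0.13). For these genes, named for the smallest p with fl/fl IRI 1 in the fit, that library stood with the other injured libraries. Over the 83 genes it did not: the mean log2 difference from sham was 0.08, 0.29, 0.59 and 0.35 in IRI libraries 1 to 4. The same mean was 0.15 in fl/fl sham 1. The median position of fl/fl IRI 1, defined below, was 0.376 over 32 genes of this list. Among the mitochondrial proteins Mrpl33 rose from 22.8 to 26.1 CPM to 40.8, 46.1, 57.9 and 40.6 CPM, and Mrpl4 fell from 65.2 to 69.1 CPM to 58.4, 51.5, 36.4 and 34.8 CPM (adjusted p = 0.016, 0.061 without fl/fl IRI 3). The count of 15 is not stable: it was 32 without fl/fl IRI 1, 30 without iGKO sham 4, 9 without fl/fl sham 1 or IRI 4 and for the fl/fl libraries alone, 6, 4 and 7 without fl/fl sham 2, 3 and 4, and 5 without fl/fl IRI 3. Of the mitochondrial calls, the 2 lower became 5 without fl/fl IRI 1, 4 without iGKO sham 4, 0 without fl/fl IRI 3 and in the fl/fl libraries alone, and 1 without fl/fl sham 1, 2, 3 or 4 or fl/fl IRI 4, and the 2 higher became 1 without fl/fl sham 2, sham 3 or IRI 4.

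The tRNA-loading enzymes of the cytosol and of mitochondria were also counted apart, and the difference between the lists was not tested. Of 20 cytosolic aminoacyl-tRNA synthetases 11 rose (55.0%), at a median log2 of 0.53. Of the 17 mitochondrial ones none passed in edgeR or DESeq2, and none had an unadjusted p under 0.05, at a median log2 of -0.18. Lars, which loads leucine, had 49.5, 48.4, 49.3 and 46.5 CPM in sham and 64.5, 73.9, 92.3 and 88.0 CPM in IRI (log2 0.72 ± 0.12, adjusted p = 0.0021). Cars, for cysteine, had 19.9 to 23.0 and 33.2, 29.2, 53.3 and 51.4 CPM (log2 0.98 ± 0.19), and Gars, for glycine, 64.6 to 79.4 and 86.6, 106, 128 and 200 CPM (log2 0.89 ± 0.20). All injured libraries were above all sham libraries for the 3 enzymes. The mitochondrial phenylalanine enzyme Fars2 had 43.6 to 50.6 CPM in sham and 48.1, 33.1, 34.1 and 33.5 CPM in IRI, so that only fl/fl IRI 1 overlapped sham (log2 -0.31 ± 0.16, adjusted p = 0.19, and 0.036 without that library). Without fl/fl sham 3, sham 4 or IRI 3 the 11 became 5, and without fl/fl IRI 4 they became 7.

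The amino acid response element is a DNA motif that the transcription factor ATF4 and its partners bind, and synthetase genes are known targets. Its letters TGATGNAA were searched on both strands of the 250 bases before the start of each gene, each motif on its own, so that matches of different motifs may overlap. Of 11036 protein-coding genes tested that have a promoter in the RefSeq table, 2.05% held a match, and of the 12 cytosolic synthetases with a promoter there, 3 did. Their promoters, which are shown because all 3 genes were higher after IRI, follow from 5′ to 3′ in the sense of the gene, with the match in capitals (RefSeq, build GRCm38.p6, which is not the build of the counts).
Aars, chr8:111033592-111033841, plus strand: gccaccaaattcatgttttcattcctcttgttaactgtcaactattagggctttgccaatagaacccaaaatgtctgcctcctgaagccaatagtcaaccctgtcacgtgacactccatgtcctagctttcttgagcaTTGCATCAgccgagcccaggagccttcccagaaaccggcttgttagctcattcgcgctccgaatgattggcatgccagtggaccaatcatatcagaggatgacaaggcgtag
Gars, chr6:55037751-55038000, plus strand: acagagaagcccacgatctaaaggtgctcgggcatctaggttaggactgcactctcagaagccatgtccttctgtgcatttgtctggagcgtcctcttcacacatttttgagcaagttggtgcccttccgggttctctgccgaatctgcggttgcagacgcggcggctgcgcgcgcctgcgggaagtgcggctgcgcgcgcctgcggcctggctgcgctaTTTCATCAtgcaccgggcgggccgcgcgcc
Tars, chr15:11399659-11399908, minus strand: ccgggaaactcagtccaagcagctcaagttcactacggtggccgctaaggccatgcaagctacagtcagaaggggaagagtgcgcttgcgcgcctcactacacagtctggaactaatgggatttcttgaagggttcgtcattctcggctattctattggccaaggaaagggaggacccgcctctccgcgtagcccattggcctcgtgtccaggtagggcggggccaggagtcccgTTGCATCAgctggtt
The matches began 112, 30 and 15 bases before the start. Tars, which loads threonine, had 34.9, 32.7, 27.9 and 30.1 CPM in sham and 40.2, 41.4, 58.2 and 61.8 CPM in IRI (log2 0.68 ± 0.15, adjusted p = 0.0086). Aars, for alanine, had 117, 147, 103 and 115 CPM in sham and 161, 150, 192 and 214 CPM in IRI (log2 0.57 ± 0.18, adjusted p = 0.045). Tars and Aars were named after their values were seen. The call of Aars was lost without any 1 of fl/fl sham 1, sham 3, sham 4, IRI 3, IRI 4, iGKO sham 1, sham 2, sham 3, iGKO IRI 1 and IRI 3, and with no filter, at adjusted p of up to 0.13. The 14 mitochondrial synthetases and 25 genes of the serine and folate list with promoters held no such letters, and 2.5% of called higher and 2.6% of called lower genes did.

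Translation initiation factors and their regulators rose in part. Of 54 tested 11 rose, at a median log2 of 0.30. Eif4ebp1, which binds and holds back the cap-binding factor eIF4E, had 11.1, 8.30, 10.8 and 9.50 CPM in sham and 11.9, 38.7, 64.0 and 56.7 CPM in IRI (log2 2.11 ± 0.35, adjusted p = 0.0018). In fl/fl IRI 1 it was barely above the highest sham library. Eif6, which keeps the large ribosomal subunit apart from the small one, had 57.9 to 108 CPM in sham and 165, 243, 263 and 321 CPM in IRI (log2 1.62 ± 0.27). The helicase Eif4a1 had 168 to 225 and 229, 364, 403 and 592 CPM (log2 1.08 ± 0.23). The 11 became 20 without fl/fl IRI 1 or iGKO sham 4 and 19 with DESeq2, 7 without fl/fl sham 1 or IRI 3, 6 without fl/fl sham 4 or IRI 4, and 5 without fl/fl sham 3.

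**Figure D1:**
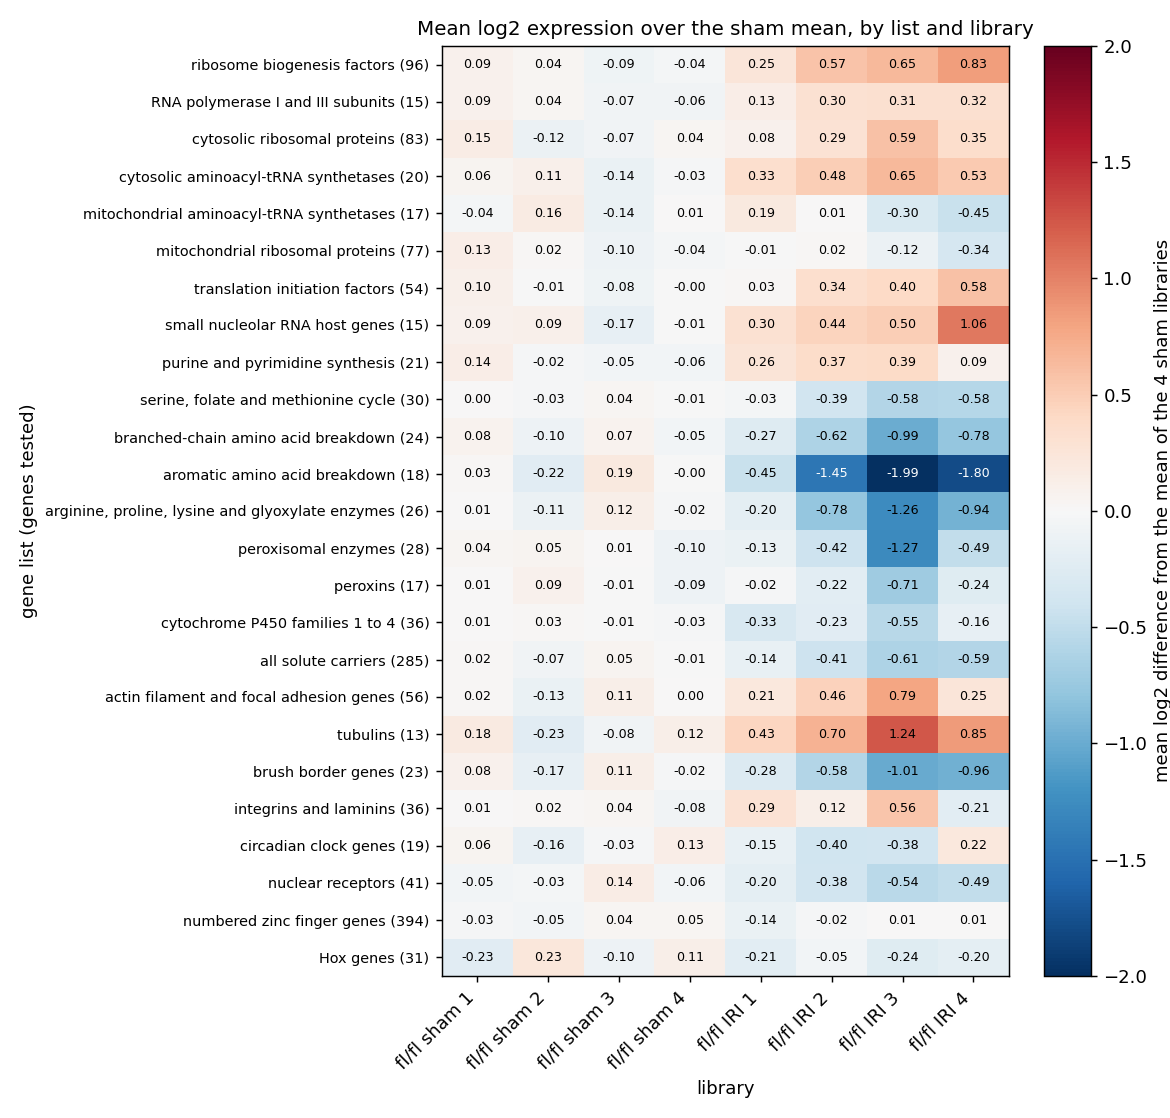
Mean log2 difference from the mean of the 4 sham libraries for 25 gene lists (vertical axis, with the number of genes tested) in each fl/fl library (horizontal axis), red above and blue below sham. Ribosome assembly factors read 0.25, 0.57, 0.65 and 0.83 in IRI libraries 1 to 4 and aromatic amino acid breakdown -0.45, -1.45, -1.99 and -1.80, with fl/fl IRI 1 nearest to sham in both.

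Genes that make nucleotides and one-carbon units moved in both directions. Of 21 genes of purine and pyrimidine synthesis 6 rose, at a median log2 of 0.30. Ctps, which makes CTP, had 46.0, 43.5, 30.9 and 42.7 CPM in sham and 74.1, 147, 107 and 98.2 CPM in IRI (log2 1.39 ± 0.22, adjusted p = 0.0014). Impdh1, which opens the branch to guanine nucleotides, had 7.89 to 11.3 and 15.7, 20.3, 25.6 and 24.5 CPM (log2 1.13 ± 0.18). Cad, which starts pyrimidine synthesis, had 32.8 to 45.6 and 70.7, 100, 112 and 48.7 CPM (log2 1.08 ± 0.22). Cad was lowest in fl/fl IRI 4 and not in fl/fl IRI 1. Of 30 genes of the serine, folate and methionine cycle, 3 rose and 8 fell, at a median log2 of -0.50.

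The 3 that rose include Mthfd2 and Mthfd1l of the mitochondrial arm of the folate pathway, named for their small p. The list also holds Shmt2, Mthfd2l and Aldh1l2 of that arm, which are not described here. The arm as a whole was not tested. Mthfd2 had 3.56, 3.37, 3.63 and 3.70 CPM in sham and 7.52, 8.25, 22.1 and 20.5 CPM in IRI (log2 2.03 ± 0.33, adjusted p = 0.0015). Mthfd1l had 4.54 to 5.85 and 10.7, 13.5, 33.3 and 49.1 CPM (log2 2.40 ± 0.39). Injured libraries 1 and 2 were close to each other in both genes and well under libraries 3 and 4. The cytosolic enzyme Mthfd1 fell from 254 to 308 CPM to 220, 168, 109 and 87.1 CPM (log2 -0.97 ± 0.21), and Cth, which makes cysteine, from 80.7 to 142 CPM to 67.7, 56.1, 40.5 and 53.8 CPM (log2 -1.06 ± 0.20). The 8 lower genes became 15 without fl/fl IRI 1, 5 without fl/fl sham 1, sham 3 or sham 4, 2 without fl/fl IRI 3, and 3 in the fl/fl libraries alone. In the 14 genes of polyamine metabolism 4 rose and 1 fell, and the 4 became 2 without fl/fl sham 3 or IRI 3. Srm, spermidine synthase, had 12.6 to 17.5 CPM in sham and 34.1, 35.4, 43.0 and 41.3 CPM in IRI (log2 1.30 ± 0.20), with fl/fl IRI 1 at the level of the others. Smox, which oxidizes spermine, had 7.19 to 10.8 and 12.4, 31.2, 63.2 and 74.3 CPM (log2 2.40 ± 0.40). The 1 lower call became 2 without fl/fl IRI 1 and 0 without each of the other fl/fl libraries, iGKO sham 1, 2 and 3, and iGKO IRI 1, 2 and 4.

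Enzymes of amino acid breakdown were called lower at shares well above that of all genes. For the branched-chain amino acids 16 of 24 genes fell (66.7%, against 7.01% of all genes tested), at a median log2 of -0.69. For the aromatic amino acids 12 of 18 fell, at -1.09, and all 18 fell without fl/fl IRI 1, at -1.503. Hgd, which opens the ring of homogentisate, had 276 to 345 CPM in sham and 205, 139, 49.2 and 79.7 CPM in IRI (log2 -1.43 ± 0.30). Bckdhb, of the branched-chain ketoacid dehydrogenase, had 29.3, 23.3, 33.9 and 26.5 CPM in sham and 18.5, 13.8, 12.4 and 11.1 CPM in IRI (log2 -1.02 ± 0.17). Pcca, of propionyl-CoA carboxylase, had 81.3 to 117 and 69.1, 60.4, 46.5 and 68.9 CPM (log2 -0.77 ± 0.16), and Acadsb, of isoleucine breakdown, 92.3 to 102 and 59.8, 49.8, 53.8 and 70.1 CPM (log2 -0.75 ± 0.18). In Pcca and Acadsb fl/fl IRI 1 did not stand apart from the other injured libraries.

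These counts moved with single libraries. The branched-chain count was 7 without fl/fl sham 1 or sham 4, 6 without fl/fl sham 3, 10, 5 and 9 without fl/fl IRI 2, 3 and 4, and 4 in the fl/fl libraries alone. The aromatic count was 7 without fl/fl sham 3, sham 4 or IRI 2, 6 without fl/fl IRI 3 and 5 in the fl/fl libraries alone. Pcbd1 recycles a pterin cofactor, and its product is also the dimerization cofactor of the transcription factor HNF1. It had 119, 107, 99.9 and 102 CPM in sham and 71.9, 52.0, 42.3 and 35.8 CPM in IRI (log2 -1.08 ± 0.19, adjusted p = 0.0024). The promoter of Pcbd1 is shown because it holds an HNF1 site (GTTAATNAT, searched on both strands), a motif found in 65 of 11036 promoters (0.589%), 11 of 818 called lower (1.34%) and 2 of 1119 called higher (0.179%), with the match in capitals, 24 bases before the start (RefSeq, GRCm38.p6).
Pcbd1, chr10:61089081-61089330, plus strand: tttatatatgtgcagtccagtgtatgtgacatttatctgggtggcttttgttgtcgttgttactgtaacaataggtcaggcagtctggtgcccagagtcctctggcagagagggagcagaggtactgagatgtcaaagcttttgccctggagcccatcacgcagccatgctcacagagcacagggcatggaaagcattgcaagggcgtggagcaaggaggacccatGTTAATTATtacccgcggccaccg
A match is a description of the letters and not evidence of binding. The HNF1 site was one of several motifs searched, and differences in share were not tested. The estrogen-related receptor element TCAAGGTCA was matched in 0.245% of all these promoters, 0% of called lower and 0.447% of called higher. In the same order, the HNF4 site CAAAGTCCA was matched in 0.344, 0.733 and 0.536%, and the GC box GGGGCGG in 38.4, 31.3 and 43.1%.

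Among 26 enzymes of arginine, proline, lysine and glyoxylate metabolism, 12 fell and 1 rose, at a median log2 of -0.79. The one that rose was Arg2, the mitochondrial arginase, with 1.66, 1.17, 3.77 and 1.75 CPM in sham and 3.97, 39.1, 34.5 and 66.5 CPM in IRI (log2 4.11 ± 0.65, adjusted p = 0.0013). In fl/fl IRI 1 it lay just above the highest sham library. Gamt, which completes creatine synthesis, fell from 8.62 to 14.8 CPM to 6.84, 3.11, 2.66 and 4.36 CPM (log2 -1.49 ± 0.29). Agxt2, a mitochondrial aminotransferase that clears asymmetric dimethylarginine, fell from 77.8 to 119 CPM to 64.4, 38.4, 27.0 and 43.2 CPM (log2 -1.17 ± 0.20). Hykk, which phosphorylates hydroxylysine, fell from 305 to 516 CPM to 251, 109, 54.0 and 47.1 CPM (log2 -1.83 ± 0.40, -2.54 without fl/fl IRI 1). The 12 lower genes became 6 without fl/fl sham 3 or IRI 3, and 4 in the fl/fl libraries alone. Uroc1, of histidine breakdown and outside the lists, fell from 52.1 to 77.3 CPM to 25.2, 4.39, 10.4 and 9.35 CPM (log2 -2.28 ± 0.43, -2.89 without fl/fl IRI 1).

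Some enzymes inside the peroxisome fell. Of 28 peroxisomal enzymes 7 fell (25%), at a median log2 of -0.46. Of 17 peroxins none passed in edgeR, with 2 at unadjusted p under 0.05 and 2 lower by DESeq2, at a median of -0.20. Acox3, a peroxisomal acyl-CoA oxidase, had 368, 343, 399 and 350 CPM in sham and 254, 122, 82.4 and 122.6 CPM in IRI (log2 -1.33 ± 0.25, adjusted p = 0.0032). Acox2, which acts on branched chains and bile acid precursors, had 108 to 131 and 75.8, 58.3, 24.9 and 16.6 CPM (log2 -1.43 ± 0.33), and Agps, of ether lipid synthesis, 278 to 441 and 182, 163, 158 and 169 CPM (log2 -0.98 ± 0.21). Agps reached nearly the same level in all 4 injured libraries. Pex10, a ubiquitin ligase of import, had 18.0 to 22.9 and 18.6, 13.4, 9.13 and 7.77 CPM (adjusted p = 0.062, 0.0055 without fl/fl IRI 1, 0.033 without iGKO sham 4). The 7 became 12 without fl/fl IRI 1 and 11 with DESeq2, 4 without fl/fl sham 1, sham 2, sham 4 or IRI 2, 3 without fl/fl sham 3, IRI 3 or IRI 4, and 2 in the fl/fl libraries alone. The 0 peroxins became 3 without fl/fl IRI 1, and 1 without fl/fl IRI 2 or iGKO sham 4. The upper quartile scaling and the replicate block each gave 1. The difference between the lists was not tested.

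Lipid droplet genes were called at shares near those over all genes tested (8.46% higher, 7.01% lower). Of 24 tested 3 rose (12.5%) and 1 fell (4.17%), at a median log2 of -0.38. Plin2, which coats lipid droplets, had 107, 96.4, 126 and 101 CPM in sham and 183, 1637, 454 and 4701 CPM in IRI (log2 4.02 ± 0.69, adjusted p = 0.0022, and 2.82 without fl/fl IRI 4). The injured libraries did not overlap with sham, and fl/fl IRI 2 and 4 were far above fl/fl IRI 1 and 3. Hilpda, an inhibitor of triglyceride breakdown induced by hypoxia, had 0.908 to 1.58 CPM in sham and 3.90, 4.33, 11.3 and 13.1 CPM in IRI (log2 2.69 ± 0.48). The 1 lower gene became 5 without fl/fl IRI 1, 2 without iGKO IRI 3, and with DESeq2, and 0 without fl/fl IRI 3 or any 1 fl/fl sham library and in the fl/fl libraries alone.

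Enzymes of drug and organic acid metabolism were called lower more often than higher, though most did not pass. Of 36 genes of cytochrome P450 families 1 to 4 tested, 9 fell and 1 rose. Of 20 carboxylesterases, sulfotransferases and flavin monooxygenases 9 fell, of 14 UDP-glucuronosyltransferases 3 fell, and of 22 glutathione S-transferases 3 rose and 4 fell. Cyp2j11 had 137, 89.2, 133 and 113 CPM in sham and 53.9, 26.7, 19.6 and 43.0 CPM in IRI (log2 -1.72 ± 0.28, adjusted p = 0.0016), and its neighbour Cyp2j13 had 218 to 391.7 and 150, 67.5, 81.8 and 84.6 CPM (log2 -1.46 ± 0.30). Members of this gene cluster are similar in sequence, so reads may be divided among them. Cyp2d26 had 72.8 to 97.2 and 43.8, 11.7, 12.3 and 35.8 CPM (log2 -1.75 ± 0.34). The glucuronosyltransferase-like Ugt3a1 had 116 to 144 CPM in sham and 78.5, 29.1, 33.9 and 57.1 CPM in IRI (log2 -1.41 ± 0.29), the flavin monooxygenase Fmo5 37.1 to 81.8 and 33.1, 16.5, 18.5 and 15.7 CPM (log2 -1.49 ± 0.34), and the carboxylesterase Ces1e 45.1 to 69.8 and 36.4, 14.9, 10.8 and 32.8 CPM (log2 -1.22 ± 0.29).

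The glutathione transferases were divided by member. Gsta1 rose from 1.11, 0.519, 0.140 and 0.629 CPM to 2.12, 6.63, 9.27 and 6.00 CPM (log2 3.33 ± 0.59, adjusted p = 0.0025). Gstm2 fell from 18.3 to 24.5 CPM to 10.2, 8.52, 10.1 and 11.6 CPM (log2 -1.10 ± 0.20), and there fl/fl IRI 1 was not apart. Of these lists, the 9 lower P450 genes became 5 in the fl/fl libraries alone. The single P450 rise became 4 without fl/fl IRI 1 or iGKO sham 4, 3 without fl/fl IRI 4 and with DESeq2, 2 without fl/fl IRI 2, and 0 without fl/fl sham 1, 3 or 4, fl/fl IRI 3, iGKO sham 1, 2 or 3, and iGKO IRI 1 or 3. The 9 esterase, sulfotransferase and monooxygenase calls became 4 without fl/fl sham 1, 2 or 3 or fl/fl IRI 2, 5 without fl/fl sham 4, iGKO sham 1, 2 or 3 or iGKO IRI 2, 2 without fl/fl IRI 3, and 1 in the fl/fl libraries alone. The 4 lower transferases became 8 without fl/fl IRI 1 2 without fl/fl sham 1, 3 or 4 or fl/fl IRI 3 or 4, and 1 in the fl/fl libraries alone. The 3 glucuronosyltransferases became 5 without fl/fl IRI 1.

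**Figure D2:**
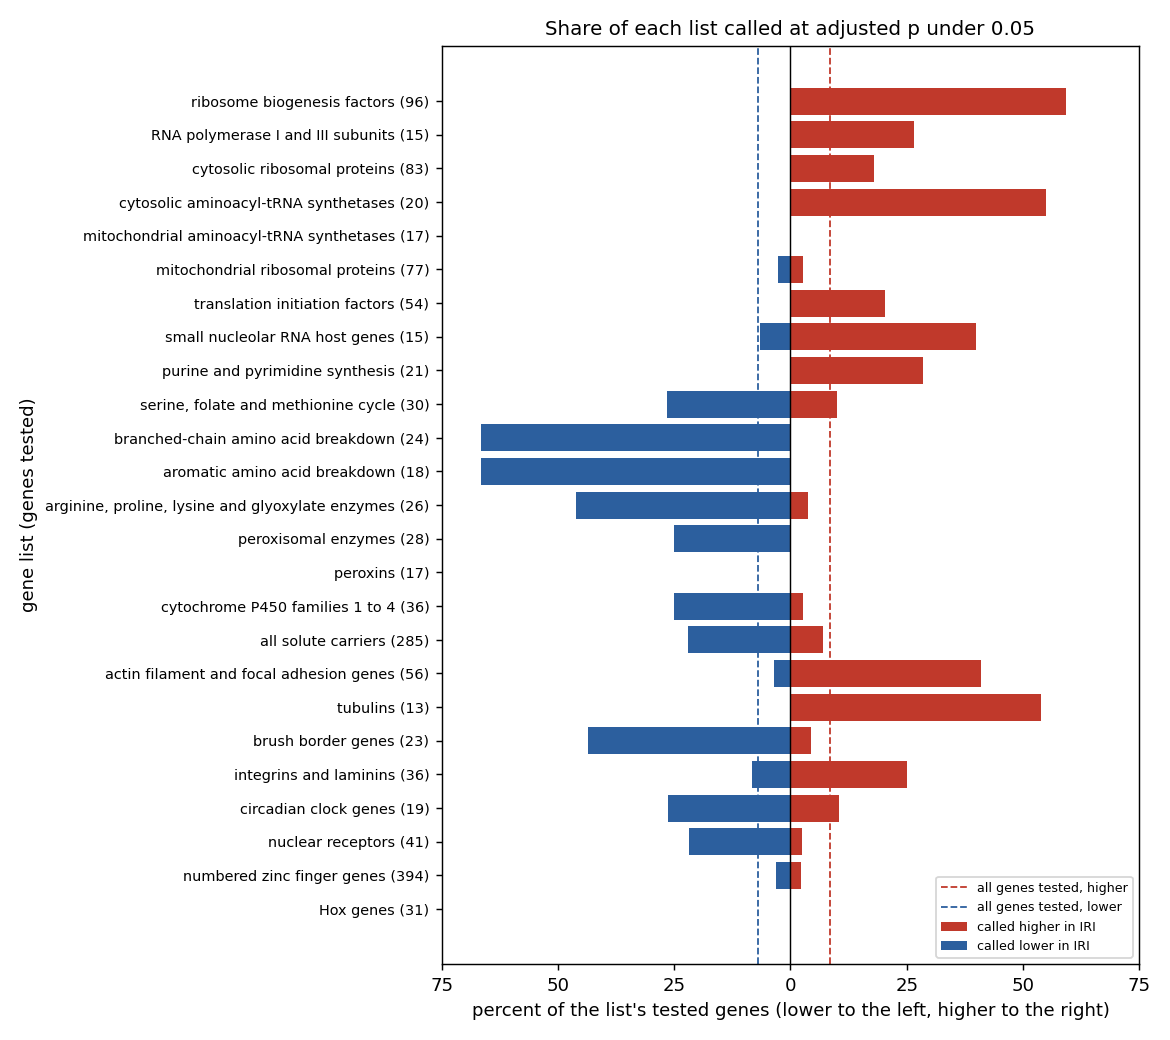
Percent of each list's tested genes called higher (right, red) and lower (left, blue) in IRI at adjusted p under 0.05, with dashed lines at the shares over all genes tested, 8.46% and 7.01%. Ribosome assembly factors reach 59.4% higher and both amino acid lists 66.7% lower, while peroxins, mitochondrial synthetases and Hox genes have no bar.

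Solute carriers fell more often than they rose. Of 285 tested 63 fell (22.1%) and 20 rose (7.02%), at a median log2 of -0.36. By family, 9 of 21 organic ion carriers (Slc22) fell and 1 rose. Of the Slc5 family, which includes the sodium-glucose cotransporters and carriers of other solutes, 6 of 9 fell. Of facilitative hexose carriers (Slc2) 6 of 11 fell and 2 rose. Of mitochondrial carriers (Slc25) 7 of 43 fell and 2 rose, and of amino acid carriers (Slc7) 3 of 13 fell and 4 rose. The 9 Slc22 genes became 14 without fl/fl IRI 1, 4 without fl/fl sham 3 and 5 without fl/fl IRI 3, and the 6 Slc5 genes 3 without fl/fl sham 3 or IRI 3. The 6 Slc2 genes became 3 without fl/fl sham 3 and 2 without fl/fl sham 1 or 4 or fl/fl IRI 2, 3 or 4. The 7 lower Slc25 genes became 12 without fl/fl IRI 1, 4 without fl/fl sham 2, 3 without fl/fl sham 1 or IRI 4 and 2 without fl/fl sham 3 or 4 or IRI 3, and the 2 higher became 1 without any 1 library but fl/fl sham 2, IRI 1 and IRI 3 and iGKO sham 4. The 3 lower Slc7 genes became 5 without fl/fl IRI 1 and 1 without fl/fl sham 3 or 4 or IRI 3 or 4. In the fl/fl libraries alone 5 Slc22, 3 Slc5, 2 Slc2, 4 Slc25 and 1 Slc7 gene fell. Slc9a3, the sodium-proton exchanger of the brush border, had 196, 198, 197 and 170.2 CPM in sham and 114, 102, 67.0 and 107 CPM in IRI (log2 -0.97 ± 0.14, adjusted p = 0.0010). Slc22a8, an organic anion carrier of the basolateral membrane, had 299.8 to 422 CPM in sham and 234, 127, 75.7 and 184 CPM in IRI (log2 -1.26 ± 0.26). All injured libraries were under all sham libraries in both genes. Slc25a24, a mitochondrial ATP-magnesium carrier, rose from 6.81 to 8.45 CPM to 14.8, 48.0, 79.6 and 37.9 CPM (log2 2.52 ± 0.36). Slc12a4, a potassium-chloride cotransporter of cell volume, had 27.3 to 38.0 and 49.3, 67.1, 95.5 and 87.9 CPM (log2 1.25 ± 0.19), and the zinc carrier Slc39a1 77.6 to 96.9 and 141, 182, 185 and 190 CPM (log2 0.96 ± 0.14).

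Over all carriers the counts of 63 lower and 20 higher became 96 and 35 without fl/fl IRI 1. The lower count was 40, 33 and 34 without fl/fl sham 1, 3 and 4, 31 and 38 without fl/fl IRI 3 and 4, and 27 (13 higher) in the fl/fl libraries alone. Of 50 potassium channel genes 7 fell (14.0%) and 1 rose (2.0%). Of 24 subunits of the vacuolar proton pump 4 fell (16.7%) and 1 rose (4.17%), against 7.01% lower and 8.46% higher over all genes. Kcnj1, the potassium channel ROMK of the thick ascending limb, had 162, 180, 162 and 167 CPM in sham and 118, 71.7, 57.7 and 33.8 CPM in IRI (log2 -1.25 ± 0.27, adjusted p = 0.0069). Kcnj10, a basolateral channel of the distal nephron, had 85.6 to 107 and 74.3, 67.2, 49.3 and 46.3 CPM (log2 -0.72 ± 0.17). The pump subunit that rose, Atp6v0a1, had 78.0 to 87.0 and 96.3, 142, 110 and 134 CPM (log2 0.55 ± 0.13). The channel counts became 4 lower without fl/fl sham 3 and 11 with DESeq2. The 1 higher channel became 0 without any 1 sham fl/fl library or fl/fl IRI 3 or 4, 3 without fl/fl IRI 1 and with DESeq2, and 2 without fl/fl IRI 2. The 4 lower pump subunits became 7 without fl/fl IRI 1, 2 without fl/fl sham 1 or 4 or fl/fl IRI 4, and 1 without fl/fl IRI 3 and in the fl/fl libraries alone.

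Calls among genes of the cell skeleton were mainly higher. Of 56 genes of actin filaments and focal adhesions 23 rose and 2 fell, at a median log2 of 0.41. Of 13 tubulins 7 rose, at 1.17. Capg, which caps actin filaments, had 16.9, 10.9, 15.7 and 10.8 CPM in sham and 44.4, 61.5, 77.1 and 52.3 CPM in IRI (log2 2.12 ± 0.23, adjusted p = 0.00036). Arpc1b, of the Arp2/3 complex, had 42.6 to 58.2 and 101, 121, 185 and 109 CPM (log2 1.39 ± 0.18), and Msn, which ties actin to the membrane, 174 to 224 and 412, 478, 753 and 436 CPM (log2 1.35 ± 0.20). In these 3 genes fl/fl IRI 1 was close to fl/fl IRI 2 and 4. Tubb6 had 5.45 to 8.85 CPM in sham and 19.8, 27.8, 59.5 and 35.1 CPM in IRI (log2 2.39 ± 0.36), and Tubb5 72.2 to 105 and 138, 159, 312 and 193 CPM (log2 1.17 ± 0.23). Counts of these 2 lists stayed at 23 and 7 to within 1.5 times in every alternative, apart from the 2 lower actin genes, which became 1 without fl/fl sham 3 and in the fl/fl libraries alone.

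Of 23 brush border genes 10 fell and 1 rose, at a median log2 of -0.62. Myo6, the minus-end motor at the base of microvilli, had 479, 432, 459 and 446 CPM in sham and 328, 306, 301 and 326 CPM in IRI (log2 -0.53 ± 0.12, adjusted p = 0.011). The protease subunit Mep1a had 710 to 1135 and 590, 472, 411 and 669 CPM (log2 -0.84 ± 0.21). In both genes fl/fl IRI 1 lay among or beside the other injured libraries. The 10 became 4 without fl/fl sham 1, 3 or 4 or fl/fl IRI 3, 5 without fl/fl IRI 4, and 6 without fl/fl IRI 2 and in the fl/fl libraries alone. The 1 rise became 0 without each fl/fl library but IRI 1, with the replicate block, and in the fl/fl libraries alone. Of 36 integrins and laminins 9 rose and 3 fell. Itga5, of the fibronectin receptor, had 20.6, 20.3, 16.8 and 15.1 CPM in sham and 61.3, 50.1, 99.6 and 65.7 CPM in IRI (log2 1.92 ± 0.26, adjusted p = 0.00064). Itga8, an integrin of mesangial cells, fell from 14.4 to 24.1 CPM to 4.58, 3.79, 4.09 and 3.22 CPM (log2 -2.22 ± 0.29). Itgb3, which pairs with alpha V, had 3.63 to 5.66 and 10.9, 12.6, 26.2 and 47.2 CPM (log2 2.32 ± 0.42). In Itga5 and Itga8 fl/fl IRI 1 carried the full change. The 9 became 5 in the fl/fl libraries alone, and the 3 lower became 1 without fl/fl sham 3 or 4 and 5 without iGKO sham 4 and with DESeq2. Of 27 serpins tested 6 rose (3 in the fl/fl libraries alone), at a median log2 of 0.80.

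**Figure D3:**
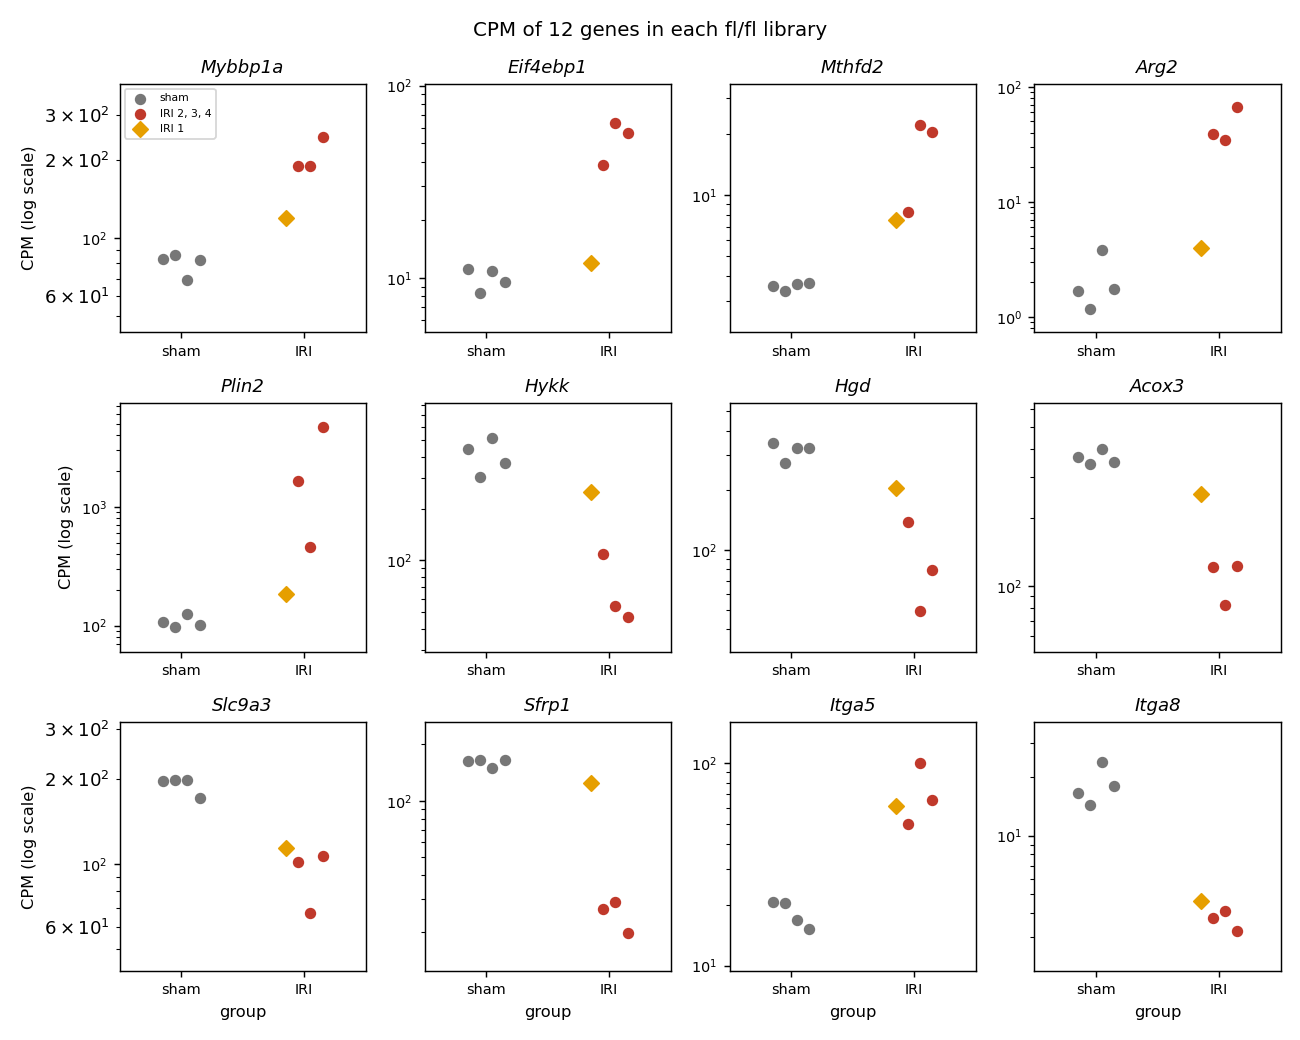
CPM on a log scale of 12 genes in the sham (grey) and IRI (red, with fl/fl IRI 1 as an orange diamond) fl/fl libraries, 1 point per library. The diamond lies next to the sham points for Eif4ebp1 (11.9 CPM) and Sfrp1 (124 CPM) and among the other injured libraries for Itga5 (61.3 CPM).

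Transcription factors were counted by family, against shares over all genes of 8.46% higher and 7.01% lower. Of 15 Kruppel-like factors 3 rose (20%) and 2 fell (13.3%), and of 21 ETS factors 4 rose (19.05%). Of 41 nuclear receptors 9 fell (22.0%) and 1 rose (2.44%). Of 32 kidney lineage factors 3 fell (9.38%) and 1 rose (3.12%), near or under the shares over all genes. Differences between families were not tested. Klf6 had 50.1, 45.3, 44.4 and 45.8 CPM in sham and 106, 120, 256 and 670 CPM in IRI (log2 2.63 ± 0.43, adjusted p = 0.0015, and 1.79 without fl/fl IRI 4). Klf5 had 2.20 to 4.26 and 2.87, 7.50, 32.4 and 22.1 CPM (log2 2.19 ± 0.54, adjusted p = 0.060 without fl/fl IRI 3), and Klf12 fell from 26.3 to 47.8 CPM to 20.1, 15.3, 21.1 and 16.5 CPM (log2 -1.04 ± 0.19). In fl/fl IRI 1 Klf5 stayed within the sham range and Klf12 carried most of the fall. Ets2 had 56.1 to 65.0 CPM in sham and 69.7, 124, 130 and 157 CPM in IRI (log2 0.96 ± 0.19). Lhx1, a factor of nephron patterning, had 36.03 to 45.8 and 31.4, 21.8, 10.9 and 19.9 CPM (log2 -0.99 ± 0.22). Among the nuclear receptors the estrogen receptor Esr1 had 16.6 to 39.5 and 12.7, 7.64, 10.8 and 3.41 CPM (log2 -1.75 ± 0.34), and Esrrb, an orphan receptor of the estrogen-related group, 21.1 to 34.4 and 16.6, 7.03, 6.34 and 12.4 CPM (log2 -1.33 ± 0.31).

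These small counts moved readily. The 3 higher Kruppel-like factors became 8 without fl/fl IRI 1, 6 with DESeq2, and 1 without fl/fl IRI 3 and in the fl/fl libraries alone, and the 2 lower became 1 without any 1 library other than fl/fl IRI 1, fl/fl IRI 4 and iGKO sham 4, with the replicate block and in the fl/fl libraries alone. The ETS count of 4 became 2 without fl/fl sham 1 or 4 or fl/fl IRI 3, the 1 higher nuclear receptor became 0 without fl/fl sham 4 or IRI 4, and the 9 lower became 5 without fl/fl sham 4 and 4 in the fl/fl libraries alone. The 3 lower lineage factors became 9 without fl/fl IRI 1, 5 without iGKO sham 4 and with DESeq2, and 1 without any 1 sham fl/fl library or fl/fl IRI 3. The 1 higher lineage factor became 2 without fl/fl IRI 1 and 0 without each other fl/fl library but IRI 2 and in the fl/fl libraries alone. Numbered zinc finger genes, the largest family tested, had 9 of 394 higher and 12 lower (2.28 and 3.05%), under the shares of all genes. They became 20 and 23 without fl/fl IRI 1, 18 and 21 without iGKO sham 4, 5 and 3 without fl/fl sham 3, and 5 and 5 without fl/fl IRI 4. DESeq2 gave 14 higher and the fl/fl libraries alone 3 higher and 4 lower. The 12 lower became 2 without fl/fl sham 1 or 4, 6 without fl/fl sham 2 or iGKO sham 2, 7 without fl/fl IRI 2 and 1 without fl/fl IRI 3. Of 31 Hox genes, which mark position along the body axis, none passed in edgeR, with 11 at unadjusted p under 0.05 and 1 higher and 1 lower by DESeq2. Without fl/fl IRI 1, 2 were higher and 2 lower, without fl/fl IRI 2, 2 were lower, without fl/fl sham 1, 1 was lower, and without iGKO sham 4, 1 was higher.

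Among 19 clock genes 2 rose and 5 fell, at a median log2 of 0.01. Tef and Hlf, of the proline and acidic amino acid-rich bZIP factors, fell, and their competitor Nfil3 rose. Dbp, of the same factors and also in the list, is not described here. Tef had 450, 362, 473 and 438 CPM in sham and 318, 159, 131 and 137 CPM in IRI (log2 -1.21 ± 0.26, adjusted p = 0.0063). Hlf had 106 to 155 and 79.0, 38.6, 11.0 and 8.59 CPM (log2 -1.94 ± 0.50, -2.76 without fl/fl IRI 1). Nfil3, the repressor that binds the same sites, had 2.52 to 3.79 and 10.5, 8.32, 17.2 and 36.4 CPM (log2 2.59 ± 0.40, 2.00 without fl/fl IRI 4). Nr1d1, the repressor REV-ERB alpha, had 90.6 to 125 CPM in sham and 44.6, 78.5, 64.8 and 70.7 CPM in IRI (log2 -0.77 ± 0.17). It was lowest in fl/fl IRI 1, unlike Tef and Hlf. The 2 became 1 without fl/fl sham 1, 2 or 3 or fl/fl IRI 4 and in the fl/fl libraries alone, and the 5 became 3 without fl/fl sham 1, 3 or 4 or fl/fl IRI 2. E-boxes (CACGTG) lay in the promoters of 5 of 16 clock genes in the RefSeq table (31.2%) against 8.12% of all.

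Smaller groups held single genes with large changes. Sfrp1, a secreted Wnt antagonist, fell from 164, 165, 150 and 164 CPM in sham to 124, 26.6, 28.8 and 19.8 CPM in IRI (log2 -1.69 ± 0.42, adjusted p = 0.014, -2.68 without fl/fl IRI 1). Among 24 prostaglandin and leukotriene genes 2 rose and 4 fell: Ptgs2, the inducible cyclooxygenase, rose from 0.419 to 1.34 CPM to 5.33, 7.37, 11.6 and 2.97 CPM (log2 3.03 ± 0.54). Hpgd, which inactivates prostaglandins, fell from 6.92 to 10.5 CPM to 2.53, 2.77, 3.13 and 1.96 CPM (log2 -1.74 ± 0.41). The mitochondrial deacetylase Sirt3 fell from 84.5 to 90.3 CPM to 64.6, 43.7, 22.4 and 26.8 CPM (log2 -1.14 ± 0.24). Ptgs2 and Hpgd in fl/fl IRI 1 were at the level of the other injured libraries, Sfrp1 and Sirt3 were not. The prostaglandin counts became 4 higher without fl/fl IRI 1 or iGKO sham 4 and with DESeq2, and 1 higher without fl/fl sham 1, 3 or 4 or fl/fl IRI 2 or 3 and in the fl/fl libraries alone. The 4 lower became 1 without fl/fl sham 3 and 2 without fl/fl sham 1 or 4 or fl/fl IRI 2, 3 or 4. Other lists lay near or under the shares over all genes (8.46% higher, 7.01% lower). Of 46 Wnt and Notch genes 1 rose (2.17%) and 4 fell (8.70%), and of 36 cilium genes 3 fell (8.33%). Of 59 histone genes 2 rose (3.39%), and of 42 histone-modifying enzymes 2 rose (4.76%) and 1 fell (2.38%). In the protein quality and RNA lists, 4 of 13 chaperonin and prefoldin, 6 of 42 proteasome, 7 of 38 nuclear transport and 6 of 30 SR and hnRNP genes rose. The proteasome count became 0 without fl/fl sham 3 or 4, 1 without fl/fl IRI 3, with the replicate block and in the fl/fl libraries alone, 2 without fl/fl sham 1 or IRI 4, 3 without fl/fl IRI 2, and 10 without iGKO sham 4. The SR and hnRNP count became 2 without fl/fl sham 3 or IRI 3 and 3 without fl/fl sham 2, sham 4 or IRI 4. Nuclear transport gave 11 without fl/fl IRI 1, 4 without fl/fl sham 3 and 3 without fl/fl sham 4 or IRI 3, and chaperonin 7 without iGKO sham 4. The 1 higher Wnt and Notch gene became 5 without fl/fl IRI 1, 4 with DESeq2, 3 without fl/fl IRI 2 or iGKO sham 4 and 0 without fl/fl sham 1, 3 or 4 or fl/fl IRI 3 or 4, and the 4 lower became 2 without fl/fl sham 2 or 3 or fl/fl IRI 2, 3 or 4. The 3 cilium genes became 5 without fl/fl IRI 1 and 1 without fl/fl sham 3. The 2 histone genes became 0 without fl/fl sham 1, 2 or 3 or fl/fl IRI 3 or 4, and 1 without fl/fl sham 4, iGKO sham 1 or iGKO IRI 3. The 2 higher modifying enzymes became 5 without iGKO sham 4, 4 without fl/fl sham 2, 1 without fl/fl sham 3, sham 4 or IRI 3 and 0 without fl/fl IRI 4, and the 1 lower became 3 without fl/fl IRI 1 and 2 without iGKO sham 4.

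Long noncoding genes fell more often than they rose. Of 436 lincRNA genes tested 57 fell and 19 rose, at a median log2 of -0.32. Of 431 antisense genes 39 fell and 12 rose, at -0.29. Over all genes tested 7.01% fell and 8.46% rose, and the share of antisense genes that fell was only a little above the former. Of 14175 protein-coding genes 1041 fell and 1419 rose, and these moved with single libraries as the counts over all genes did. Without fl/fl IRI 1, 90 lincRNA and 85 antisense genes fell. The 57 lincRNA genes became 33, 37, 27 and 29 without fl/fl sham 1, 2, 3 and 4, 28 and 30 without fl/fl IRI 3 and 4, and 21 in the fl/fl libraries alone, and the 19 higher became 8 to 12 without the same libraries. The 39 antisense genes became 21, 20 and 21 without fl/fl sham 1, 3 and 4, 16 and 24 without fl/fl IRI 3 and 4, and 12 in the fl/fl libraries alone. Outside the lists the largest rises included Krt20, a keratin of surface epithelia, with 0.711, 0.259, 2.10 and 4.75 CPM in sham and 10.3, 115, 475 and 894 CPM in IRI (log2 7.57 ± 1.40, 8.51 without fl/fl sham 4, 6.67 without fl/fl IRI 4). All 3 fibrinogen chains, clotting proteins known from liver, were among them: Fgb had 1.19 to 8.04 and 35.3, 279, 200 and 697 CPM (log2 6.02 ± 0.97, 5.20 without fl/fl IRI 4). Fga had 25.4 to 80.8 and 183, 1009.6, 569 and 2421 CPM (log2 4.44 ± 0.77, 3.61 without fl/fl IRI 4), and Fgg 13.4 to 59.6 and 105, 597, 343 and 1631 CPM (log2 4.51 ± 0.87, 3.57 without fl/fl IRI 4, 5.11 without fl/fl sham 4). The 3 chains were highest in fl/fl IRI 4 and lowest in fl/fl IRI 1 among the injured. Cxcl2, a chemokine that attracts neutrophils, had 0.130 to 1.501 and 7.32, 24.5, 16.2 and 15.5 CPM (log2 4.99 ± 0.66, 6.38 without fl/fl sham 1). Fosl1, a subunit of the transcription factor AP-1, had 0.0648 to 1.12 and 3.76, 16.0, 36.7 and 101 CPM (log2 6.20 ± 1.25, 6.86 without fl/fl sham 4, 5.13 without fl/fl IRI 4). Every injured library exceeded every sham library in both genes, as the rule that chose genes outside the lists required. Sox9, a factor of regenerating tubule cells, had 1.90 to 3.24 and 12.2, 36.6, 67.6 and 224 CPM (log2 5.13 ± 0.72, 3.99 without fl/fl IRI 4). The largest falls included Ogn, a small proteoglycan of connective tissue, from 7.72 to 27.4 CPM to 2.26, 3.11, 3.47 and 1.39 CPM (log2 -2.86 ± 0.60). Car14, a membrane carbonic anhydrase, fell from 88.9 to 161 CPM to 67.4, 12.4, 7.63 and 33.1 CPM (log2 -2.11 ± 0.47, -2.87 without fl/fl IRI 1). Akr1c14, a hydroxysteroid dehydrogenase, fell from 76.3 to 234 CPM to 76.2, 18.1, 27.0 and 25.2 CPM (log2 -2.30 ± 0.48, -2.94 without fl/fl IRI 1).

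The library fl/fl IRI 1 was compared by how far along the change of the other injured libraries it lay. For each IRI library, genes called with that library left out were taken, and its position was set on a log2 scale running from 0 at the sham mean to 1 at the mean of the other 3 IRI libraries. The median position of fl/fl IRI 1 was 0.305 over 4276 genes, against 0.804 (2238 genes), 1.22 (1456) and 1.18 (1838) for fl/fl IRI 2, 3 and 4. In fl/fl IRI 1, 71.9% of the genes lay nearer to sham than to the other injured libraries and 16.5% lay at or beyond the sham mean, away from the injured side. The same shares were 19.7 and 2.01% in fl/fl IRI 2, 5.63 and 1.17% in fl/fl IRI 3, and 17.8 and 6.09% in fl/fl IRI 4. Genes that rose were at a median of 0.364 in fl/fl IRI 1 and genes that fell at 0.256. The 4 values share the sham libraries and are a description without a test. Of 17972 genes, 8.85% lay over 2-fold from the sham mean in fl/fl IRI 1, against 13.9, 21.0 and 28.5% in fl/fl IRI 2, 3 and 4, and against 3.08 to 5.80% for a sham library set against the other 3. The position of fl/fl IRI 1 stayed between 0.293 and 0.314 under every alternative tried. Of the 2779 genes called with it, 2689 were called without it (96.8%, 62.0% of the 4335), all in the same direction.

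**Figure D4:**
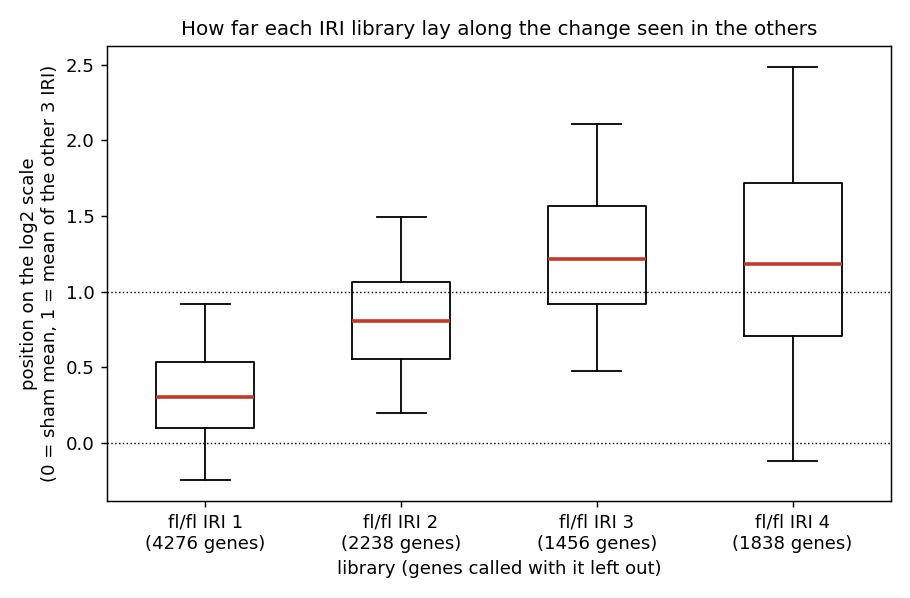
Position of each IRI library on the log2 scale from the sham mean (0) to the mean of the other 3 IRI libraries (1), for the genes called with that library left out. Boxes span the quartiles, red lines the medians (0.305, 0.804, 1.22 and 1.18), and whiskers the 5th to 95th percentile.

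Median positions in fl/fl IRI 1 ranged widely between lists. Kruppel-like factors had a median position of -0.01 in fl/fl IRI 1 (11 genes called without it), kidney lineage factors 0.098 (11 genes), nuclear transport 0.193 (11 genes), initiation factors 0.195 (20 genes) and peroxisomal enzymes 0.199 (12 genes). Ribosome assembly factors were at 0.374 (66 genes), aromatic amino acid breakdown at 0.236 (18 genes) and solute carriers at 0.252 (131 genes), near the median of all genes. Cytosolic tRNA synthetases were at 0.565 (12 genes), purine and pyrimidine synthesis at 0.562 (8 genes) and SR proteins and hnRNPs at 0.659 (8 genes), farther along the scale than the median of all genes. Actin and focal adhesion genes were at 0.516 (28 genes). These medians rest on few genes, and differences between lists were not tested. By the sum of cell type markers, fl/fl IRI 1 held 23000.1 CPM of proximal tubule markers, between sham and the rest, and 32.0 of neutrophil markers, the lowest of the injured libraries.

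The summed level of macrophage markers was highest in fl/fl IRI 1. Of 12 monocyte and macrophage markers tested, 7 were highest in fl/fl IRI 1 of all 8 libraries, and they summed to 1046 CPM there, against 287 to 366 in the other injured libraries and 154 to 385 in sham. Ctss, a lysosomal protease of antigen-presenting cells, had 47.5, 21.6, 23.1 and 31.9 CPM in sham and 189, 23.3, 47.7 and 34.9 CPM in IRI. The complement genes C1qb and C1qc, made by resident macrophages, had 68.6 and 50.8 CPM in fl/fl IRI 1, and elsewhere ranged over 13.8 to 24.6 CPM and 7.52 to 15.9 CPM. Lyz2, one of the 12 markers, reached 634 CPM (17.9 to 219 elsewhere), the largest part of the marker sum in fl/fl IRI 1. Mpeg1 reached 114 CPM (20.6 to 43.9), Gpnmb 29.3 CPM (1.362 to 9.47) and the integrin chain Itgb2 94.4 CPM (11.2 to 33.5). The complement receptor C3ar1 reached 23.4 CPM (2.09 to 9.46). Ctss, Mpeg1, Gpnmb, Itgb2 and C3ar1 are outside the 12 markers and were picked by their place in fl/fl IRI 1. None of these 8 genes passed the test of IRI against sham (adjusted p 0.12 to 0.46), and 5 of their 8 estimates changed sign without fl/fl IRI 1. Cd14, the co-receptor for lipopolysaccharide, and the chitinase-like Chil3 were the 2 markers that rose, to 49.8, 69.97, 53.6 and 276 CPM for Cd14 (5.52 to 14.8 in sham, log2 3.79 ± 0.54, 2.83 without fl/fl IRI 4). In Cd14 fl/fl IRI 1 was not apart.

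Among the genes picked by their place in fl/fl IRI 1 were 3 of antigen presentation by MHC class II. H2-Ab1 had 53.2, 54.8, 61.2 and 91.7 CPM in sham and 117, 23.3, 26.6 and 34.7 CPM in IRI, and H2-Eb1 had 50.5, 68.2, 59.3 and 63.4 CPM and 103, 18.997, 24.3 and 32.4 CPM. The peptide-loading gene H2-DMb1 had 10.0 to 15.2 CPM and 26.7, 7.64, 7.29 and 2.65 CPM. In all 3 genes fl/fl IRI 1 lay above, and the other injured libraries below, every sham library. With all libraries the log2 differences were -0.37, -0.43 and -0.25 (adjusted p = 0.62, 0.57 and 0.75). Without fl/fl IRI 1 they were -1.21, -1.26 and -1.17 (adjusted p = 0.017, 0.021 and 0.016). S100a9, a neutrophil protein, had 1.04 to 2.21 CPM in sham and 4.58, 24.6, 60.9 and 10.7 CPM in IRI (log2 4.18 ± 0.83, 3.26 without fl/fl IRI 3). The 3 MHC class II genes were picked by their place in fl/fl IRI 1. Only genes called without that library, at an absolute log2 difference of at least 1 there, could be picked. Their calls and sizes without fl/fl IRI 1 were thus conditions of the choice, and their pattern follows from it in part. Summed neutrophil markers stood at 32.0, 132, 281 and 39.2 CPM in IRI libraries 1 to 4. Summed monocyte and macrophage markers stood at 1046, 287, 366 and 353 CPM. By these sums fl/fl IRI 1 was lowest for neutrophils and highest for macrophages, a difference that was not tested.

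**Figure D5:**
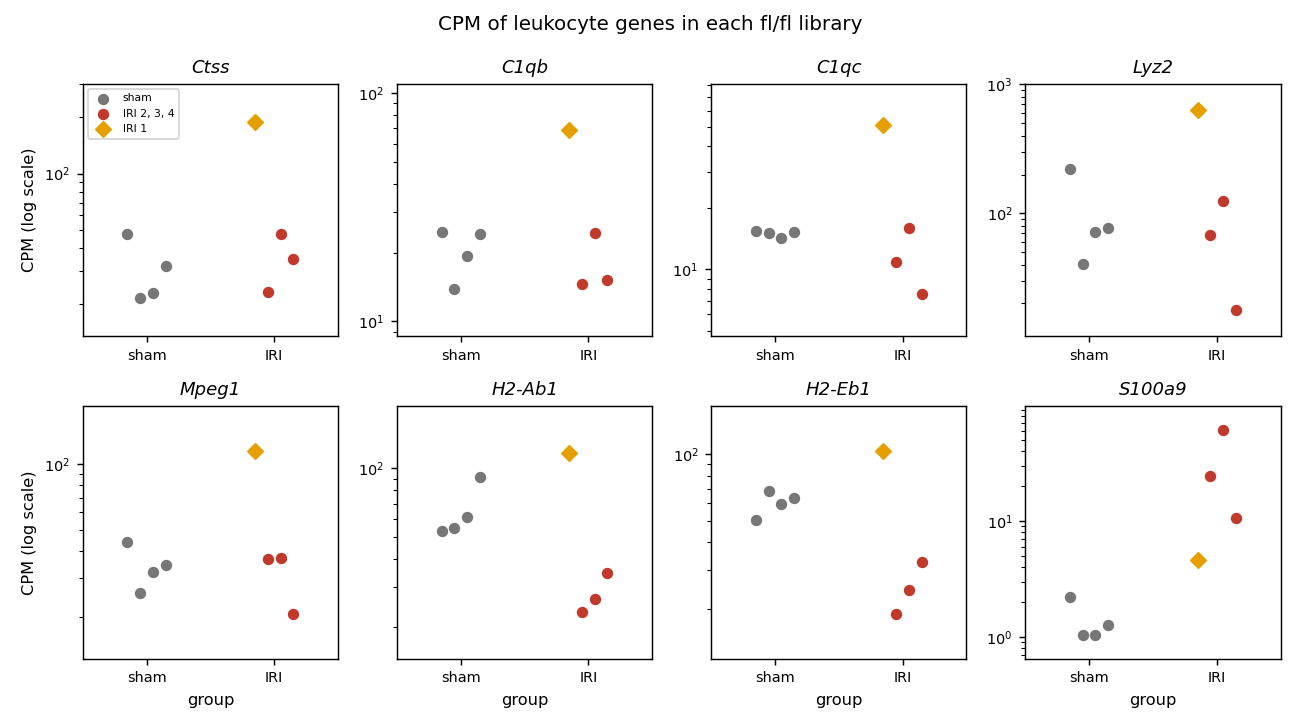
CPM on a log scale of 7 macrophage and MHC class II genes and the neutrophil gene S100a9 in each fl/fl library, sham in grey, IRI in red and fl/fl IRI 1 as an orange diamond. The diamond is the highest point for the first 7 genes (189 CPM for Ctss) and the lowest injured point for S100a9 (4.58 CPM).

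Other genes were picked at the ends of the ranking by position in fl/fl IRI 1. That ranking held only genes called without fl/fl IRI 1, so the call of Slc10a2 without it was a condition of the choice. The bile acid carrier Slc10a2 had 35.9 to 80.0 CPM in sham and 111, 31.2, 32.2 and 9.16 CPM in IRI (adjusted p = 0.64, 0.032 without fl/fl IRI 1). Apln, which encodes the peptide apelin, rose to 48.2, 10.1, 63.2 and 13.0 CPM from 4.96 to 7.34 CPM (log2 2.40 ± 0.60, adjusted p = 0.051 without fl/fl sham 3 and 0.059 without fl/fl IRI 3). The myeloid kinase Fgr had 3.98 to 9.40 and 20.8, 13.0, 17.1 and 6.70 CPM (log2 1.37 ± 0.34, adjusted p = 0.052 without fl/fl sham 3 or 4), and the receptor Gpr35 1.82 to 3.48 and 10.1, 7.44, 10.5 and 4.55 CPM (log2 1.69 ± 0.33). In these 3 genes fl/fl IRI 1 and 3 were above fl/fl IRI 2 and 4. Counting all 11934 genes with a mean of at least 5 CPM, 31 were over 2-fold above and 5 over 2-fold below all 7 other libraries in fl/fl IRI 1 (0.302%). The same total was 33 in fl/fl IRI 2, 125 in fl/fl IRI 3 and 555 in fl/fl IRI 4 (4.65%), and 1 to 30 in the sham libraries. By genes outside the range of the rest, fl/fl IRI 4 stood farther apart than fl/fl IRI 1. A value between sham and the other injured libraries lies inside that range. This count therefore does not measure how near to sham fl/fl IRI 1 lay.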

How the data were processed

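Total RNA of kidney cortex, depleted of ribosomal RNA, was sequenced in 16 libraries, 4 for each of 2 genotypes and 2 surgeries. The authors deposited raw read counts per gene. Per the submitters' processing notes, the tools include cutadapt 1.16, STAR 2.7.9a, featureCounts 1.6.3 and DESeq2 1.36.0, with the mouse build GRCm39. The table held 56980 gene identifiers, 4855 without a symbol. Groups were taken from the labels. Genes were tested with edgeR 4.0.16 (R 4.3.3): the filter filterByExpr, TMM scaling and the quasi-likelihood test, with all 16 libraries in the fit and 1 coefficient per group, and Benjamini-Hochberg adjustment over all genes tested, at 0.05. CPM are scaled by TMM, while marker sums are CPM of unscaled totals. Mean log2 values used a prior count of 2. Errors of log2 differences are standard errors. The fit was tested on simulated data. Alternatives were RLE and upper quartile scaling, no filter, a mean CPM filter, the 8 fl/fl libraries alone, a replicate block, each library left out, and DESeq2 1.42.0. The text names Degs1, Havcr1, Lcn2 and Slc34a1 and up to 4 genes with the smallest p in each list. Outside the lists, examples came from the 12 largest rises and 12 largest falls among called genes whose groups did not overlap. Further examples came from the 10 genes at each end of the position of fl/fl IRI 1 and the 10 farthest outside the other libraries. The position ranking held only genes called without fl/fl IRI 1, with an absolute log2 difference of at least 1 there. Gene lists and members were chosen with earlier results of these data known. No 2 libraries were duplicates (lowest mean chi-square per gene 9.12). Totals of 12704273 to 18816343 counts set the counting error.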

Additional observations from a re-analysis of the deposited data

Results flagged for a closer look

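A library was marked where its gap to the nearest of the 4 libraries of its group, divided by the range of the group, passed Dixon's critical value for 4 samples. Of 369 groups of 4 tested, 27 had such a library. The rule marks about 1 in 20 groups by chance, but that rate does not apply here. Some genes were picked by their place in fl/fl IRI 1, and groups share genes. The library fl/fl IRI 1 was the one far from the other injured libraries for Fars2 (48.1 CPM), Fmo5 (33.1 CPM), Tef (318 CPM), Sfrp1 (124 CPM), Akr1c14 (76.2 CPM), Ctss (189 CPM), H2-Ab1 (117 CPM) and H2-Eb1 (103 CPM), where it was highest. It was lowest for Slc39a1 (141 CPM) and for the mean log2 difference from sham of RNA polymerase I and III subunits (0.13). Other injured libraries stood apart for Rpl12 (fl/fl IRI 3, 295 CPM), Cd14 (fl/fl IRI 4, 276 CPM), lipid droplet genes (fl/fl IRI 3, mean log2 -1.12), primary cilium genes (fl/fl IRI 4, -0.43), Kruppel-like factors (fl/fl IRI 4, 0.97) and podocyte markers (fl/fl IRI 4, -0.74).

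Among the sham libraries, fl/fl sham 1 was highest for Cyp2j13 (391.7 CPM), Cxcl2 (1.501 CPM), Cd14 (14.8 CPM), Itgb2 (33.5 CPM), Fgr (9.40 CPM) and purine and pyrimidine synthesis (mean log2 0.14). The library fl/fl sham 2 had the lowest mitochondrial share (4.43%) and the highest podocyte markers (mean log2 0.25). The library fl/fl sham 3 was lowest for Sfrp1 (150.0 CPM) and highest for nuclear receptors (mean log2 0.14), and fl/fl sham 4 was lowest for Slc9a3 (170.2 CPM).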

How the results depend on the processing

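The 1520 higher and 1259 lower genes became 916 and 610 when the fl/fl libraries were fitted alone. Leaving out 1 library gave 813 to 2194 higher and 564 to 2141 lower, the lowest higher count without fl/fl sham 3, the lowest lower count without fl/fl IRI 3, and the highest of both without fl/fl IRI 1. Without iGKO sham 4, which is in neither group, they were 2099 and 1618. RLE scaling gave 1560 and 1258, upper quartile scaling 1387 and 1373, no filter 1358 and 1116, the mean CPM filter 1575 and 1207, and DESeq2 2001 and 1696. The cause of these differences was not tested. Same-numbered sham and IRI libraries deviated together with correlations of 0.055, 0.025, 0.11 and 0.041. Pairs with different numbers ranged from -0.18 to 0.078, and not every library correlated best with its own number. Correlations this weak cannot decide whether same-numbered libraries share more than a number. With the replicate block the counts were 1308 and 1187. With 1 library left out, log2 differences ranged from -0.39 to 0.79 for C1qc, -0.18 to 0.82 for C1qb, -0.54 to 1.74 for Lyz2, -0.11 to 0.88 for Mpeg1 and -0.034 to 1.07 for C3ar1, each below 0 without fl/fl IRI 1 only, and from -1.17 to 0.073 for H2-DMb1, above 0 without fl/fl IRI 4 only. None of the first 5 was called under any alternative. Low counts limit genes such as Gsta1 and Fosl1 in sham.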
